A study of Mus musculus with 33 samples.

Results

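Bone marrow from C57BL/6 mice was compared 7 days after a short course of ruxolitinib, an inhibitor of the kinases JAK1 and JAK2, with marrow from mice that received only a dosing solution. The comparison holds 7 of the 33 mice of the study. They were the 3 mice labelled as ruxolitinib-treated with 7 days post drug treatment, and the 4 vehicle-treated mice of the same day, 2 given the ruxolitinib vehicle and 2 given the venetoclax vehicle. Ruxolitinib was given by oral gavage 2 times a day for 2 days, at a dose stated as 180 mg/ml in the labels and 180 mg/kg in the methods. The ruxolitinib vehicle held DMSO and polyethylene glycol in water and was given on the same schedule. The venetoclax vehicle was a lipid, polyethylene glycol and ethanol mixture given once a day, so the 2 groups that were pooled as controls differed in solvent and in the number of gavages. All mice were female and 6-8 weeks old, and the labels name no transgene, irradiation or transplant for any of them. The study gave the drug before reduced intensity conditioning and allogeneic stem cell transplantation (alloSCT), and this comparison addresses what was left of the transcript changes after a week.

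RNA of whole marrow was counted on the NanoString nCounter, which counts colour-coded probes bound to their target transcripts, with 1 lane per mouse and 750 endogenous genes. Values are given as normalised counts, meaning counts scaled by housekeeping probes of the same lane. Endogenous totals of the 7 lanes ran from 43698 to 393591, and 1 of the 3 ruxolitinib lanes and 2 of the 4 vehicle lanes held fewer than 60000 counts. The 7 lanes were read in 1 run of 11 lanes that held all mice of day 7, so the comparison lies within a run. The granulocyte transcripts that define marrow were abundant in every lane: S100a8, an alarmin of neutrophils, took from 32.5% to 40.5% of endogenous counts, and the cathelicidin gene Camp lay between 6709 and 10368 normalised counts. The B lineage markers Cd79b and Igll1 were above background in all 7 lanes, whereas Cd79a was above background in 5. In whole marrow, fewer cells of a type and less RNA per cell cannot be told apart.

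JAK1 and JAK2 sit on the intracellular part of cytokine receptors and phosphorylate STAT proteins, which then enter the nucleus and switch on target genes. Interferons, interleukin-6, blood cell growth factors and the cytokines that use the common gamma chain, such as IL-2, IL-7 and IL-15, all signal through them. Marrow is where B cells are made: progenitors rearrange their immunoglobulin genes with RAG1 and RAG2 under the transcription factor PAX5, pass through a precursor stage that carries CD25, the alpha chain of the IL-2 receptor, and then display a B cell receptor with CD79 on immature and mature B cells that carry CD20, CD40 and the BAFF receptor.

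Across 655 genes, edgeR's quasi-likelihood test found 2 that differed between ruxolitinib and the pooled vehicles at an adjusted p under 0.05 (0.305% of the genes tested), and both were lower in the treated mice. They were Il2ra, which encodes CD25, and Cd40, which encodes a receptor of B cells and other antigen-presenting cells for help from T cells. Before adjustment, 35 genes (5.34%) had a p under 0.05, of which 29 (4.43%) were lower and 6 (0.916%) were higher. Without a model, 31 genes (4.73%) had all 3 ruxolitinib mice below all 4 vehicle mice, and 8 (1.22%) had them above. With housekeeping scaling 395 of the 655 estimates (60.3%) lay below 0, and the median log2 fold change was -0.06. This small shift moved with the scaling: the median was -0.11 with total count scaling and -0.06 when S100a8 was left out of the total, but 0.04 under TMM and DESeq2 and 0.02 with all 20 housekeeping probes, so the 60.3% given beside the gene lists holds for the housekeeping scaling used here. Among genes with a mean of at least 20 normalised counts, 9 had both an unadjusted p under 0.05 and no overlap. Mavs was the 1 that was higher, and the 8 that were lower included Ms4a1, Rag1, Cd79b and Pax5 of the B lineage, H2-Ob, Nlrc5 and Tab1, an adaptor of inflammatory kinase signalling.

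**Figure D1:**
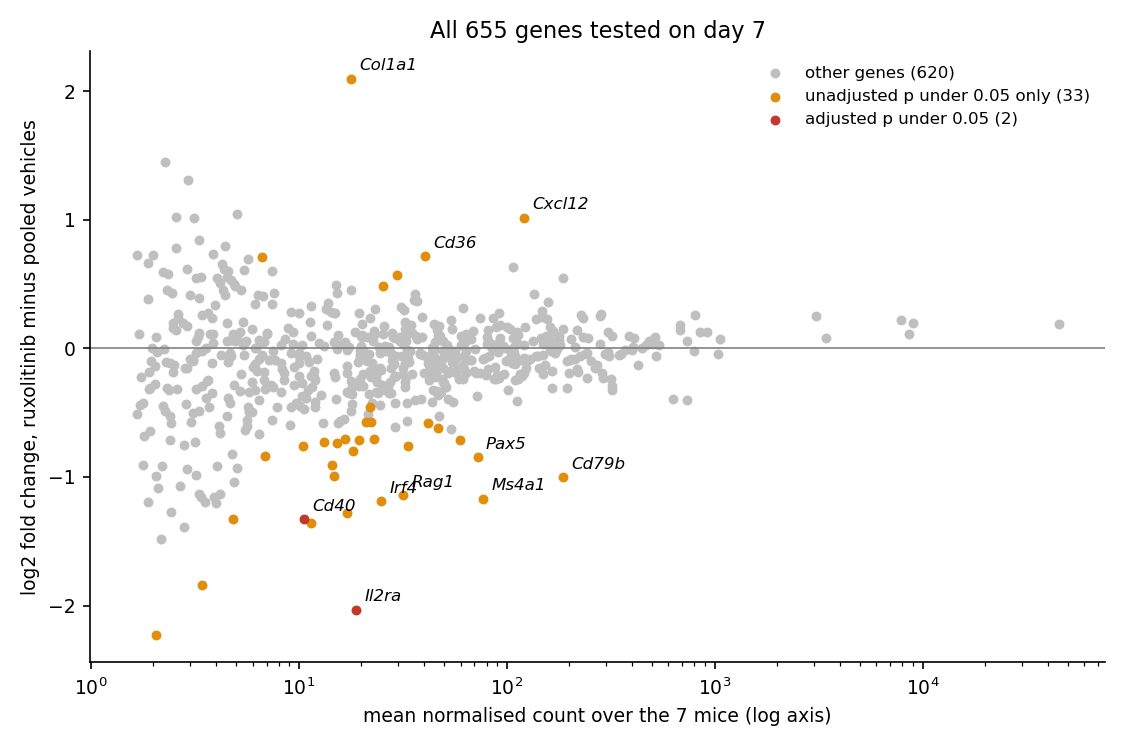
Each point is 1 of the 655 genes tested, with its mean normalised count over the 7 mice on the x axis (log scale) and its log2 fold change, ruxolitinib minus pooled vehicles on day 7, on the y axis. The 2 genes in red passed the adjusted threshold, and the 33 in orange had only an unadjusted p under 0.05; Cd79b, Ms4a1, Pax5 and Rag1 lie below 0, and Col1a1, Cxcl12 and Cd36 above.

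Il2ra had the smallest p of all genes. The 3 ruxolitinib mice had 5.74, 6.46 and 12.4 normalised counts, the 2 mice given the ruxolitinib vehicle had 24.1 and 28.7, and the 2 given the venetoclax vehicle had 32.0 and 22.5. Every treated mouse lay below every vehicle mouse, and the nearest values, 12.4 and 22.5, came from 4 and 8 raw counts. The log2 fold change was -2.03 (SE 0.31; edgeR quasi-likelihood test, adjusted p = 9.9e-05), 4.09-fold lower. The raw counts behind these values were small: 14, 22 and 4 in the ruxolitinib lanes, the last in the lane of 48756 endogenous counts and below its background of 4.81, and 79, 14, 82 and 8 in the vehicle lanes. Without the 8 lanes of the study under 60000 counts, 3 of them in this comparison, the change in Il2ra was -2.17 (edgeR, adjusted p = 0.00038). With each of the 7 mice left out in turn it lay between -2.14 and -1.89, and the adjusted p was at most 0.0154.

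The sequence just upstream of the Il2ra start is shown because Il2ra is the gene on which the result turns and JAK-STAT signals are known to act on it. The 250 bases before the start annotated by RefSeq lie at chr2:11642542-11642791 on the plus strand of GRCm38.p6 and read, 5′ to 3′, with 2 overlapping matches to the NF-kappaB consensus in capitals:
Il2ra: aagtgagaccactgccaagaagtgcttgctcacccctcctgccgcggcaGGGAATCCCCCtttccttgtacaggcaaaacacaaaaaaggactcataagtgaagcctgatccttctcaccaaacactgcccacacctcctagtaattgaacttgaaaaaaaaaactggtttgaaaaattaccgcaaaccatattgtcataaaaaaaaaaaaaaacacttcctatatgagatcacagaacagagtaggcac
The matches, found with both strands searched, together cover positions -201 to -191 from the start. This motif was chosen after the sequence had been seen. On either strand it occurs in 3.90% of 32851 RefSeq windows of this length. Of the 549 panel genes with a window, 10.6% held it in any of their windows, a share by gene and not by window. The STAT pattern TTCNNNGAA is present in 7.02% of all windows and in any window of 12.9% of these panel genes. It has no match in these 250 bases on either strand, which says only that these letters are not in this window. Of 11 genes looked up for their lower values, 6 had a window, and none of the 6 held the STAT pattern.

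Across all 13 groups of the study, the day 7 ruxolitinib group had the lowest mean for Il2ra, 8.21 ± 3.67 normalised counts (SD, n = 3). Next in order came the untreated group, in which the 3 mice had 9.60, 10.1 and 24.7, so that these 2 groups overlapped. The lower 2 of these values were 3 raw counts each, in lanes with backgrounds of 7.47 and 5.31, so the overlap rests on levels not above background. Ruxolitinib mice of day 1 had 16.4, 22 and 24.3, and those of day 3 had 11.2, 22 and 23.7. The 3 venetoclax mice of day 7 had 38.4, 47.4 and 64.3, above every mouse of the other groups. Set against the 3 untreated mice in place of the vehicles, the day 7 ruxolitinib level of Il2ra was lower by a log2 fold change of -1.48 (edgeR, adjusted p = 0.0155), in a comparison in which 87 of 655 genes (13.3%) passed, 28 (4.27%) higher and 59 (9.01%) lower. Each run held 1 untreated mouse, so this comparison crosses runs for 2 of its 3 controls, and the part of the run in it was not tested.

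**Figure D2:**
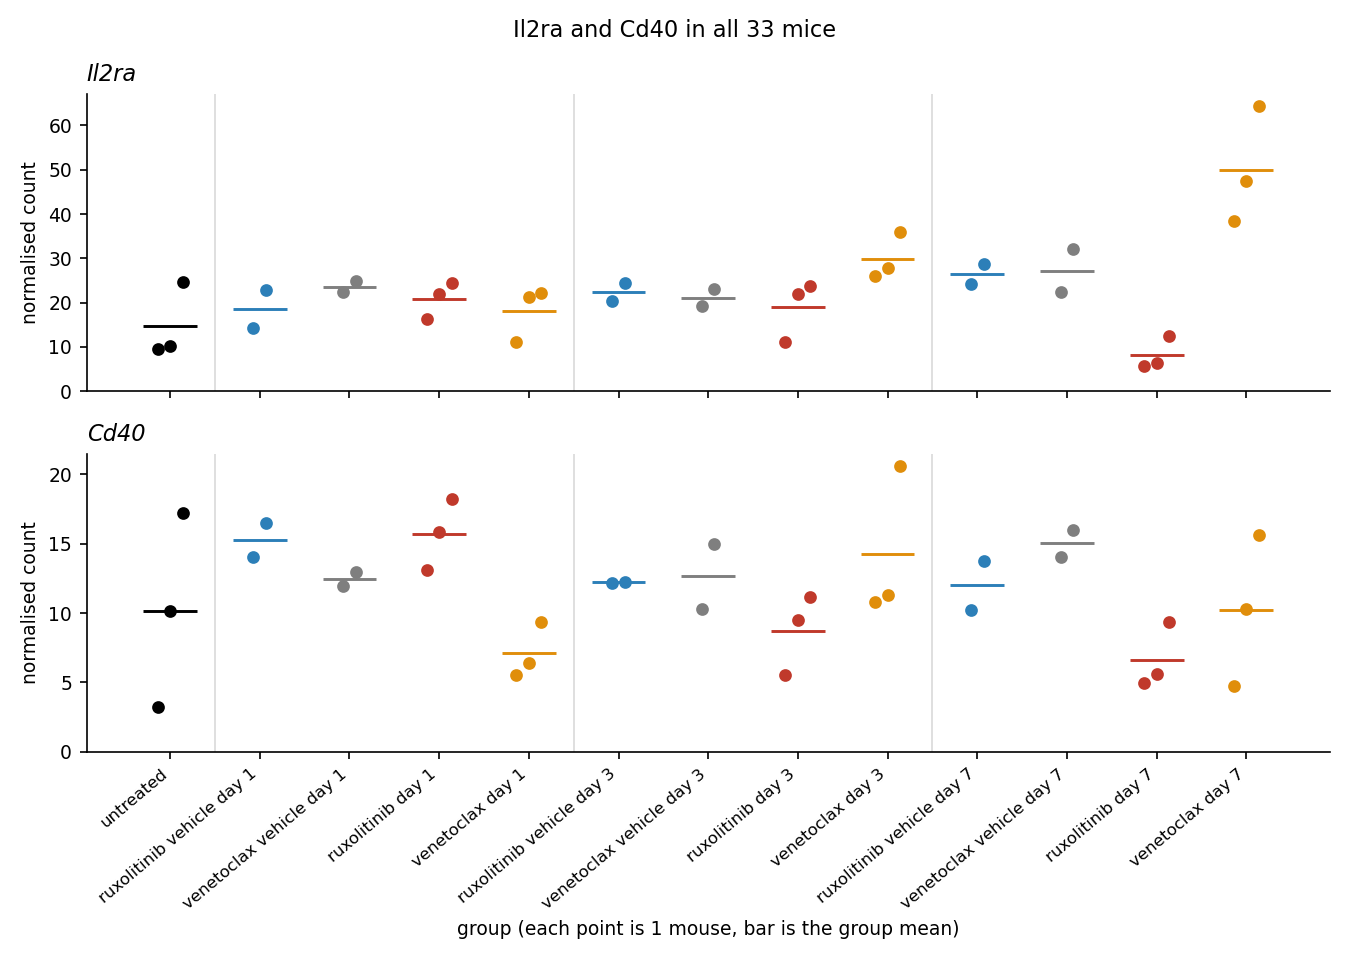
Normalised counts (linear axis from 0) of Il2ra (top) and Cd40 (bottom) in all 33 mice, by group; each point is 1 mouse and each bar the group mean. The 3 ruxolitinib mice of day 7 lie between 5.74 and 12.4 for Il2ra and between 4.92 and 9.32 for Cd40, and the 4 vehicle mice of that day lie above them in both panels.

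Cd40 had 4.92, 5.58 and 9.32 normalised counts in the ruxolitinib mice. The ruxolitinib vehicle mice had 13.7 and 10.2, and the venetoclax vehicle mice had 16 and 14. No treated mouse reached a vehicle mouse, although the gap between the nearest values was small. The log2 fold change was -1.33 (SE 0.31; edgeR, adjusted p = 0.0425), 2.51-fold lower. This call was close to the threshold and did not hold without ruxolitinib mouse 1 (adjusted p = 0.428), ruxolitinib mouse 2 (0.231), ruxolitinib vehicle mouse 1 (0.117) or venetoclax vehicle mouse 1 (0.303). It failed in 12 of 15 alternatives, among them DESeq2 (0.463), limma (0.786) and TMM scaling (0.091). The 3 in which Cd40 passed were the fit of the 7 mice alone (0.034), that against untreated mice (0.043) and that without the 8 lanes of the study under 60000 counts (-1.47, 0.0159). Raw Cd40 counts were 12, 19 and 3 in the treated lanes, the last below its background of 4.81, and the gap to the vehicle mice is set by that lane.

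The list of mature B cell genes had 15 members tested, of which 13 had an estimate below 0, as did 60.3% of all genes. Cd40 was the 1 that passed the adjusted test, beside 0.305% of all genes. At an unadjusted p under 0.05, 4 of the list were lower, beside 4.43% of all genes. In 5 the treated mice lay below all vehicle mice, as in 4.73% of all genes. The median log2 fold change of the list was -0.45 (-0.25 against the ruxolitinib vehicle alone), beside -0.06 for all genes tested. Its summed level overlapped between groups, at 622 to 836 normalised counts in treated and 822 to 1012 in vehicle mice. Ms4a1, which encodes CD20, had 30.3, 55.2 and 49.7 normalised counts in the ruxolitinib mice against 97.7, 96.3, 94.5 and 115.2 in the 4 vehicle mice. All 3 treated values lay well below the 4 vehicle values, with a log2 fold change of -1.17 (SE 0.29) and an adjusted p of 0.0527 by edgeR, just outside the threshold. Ms4a1 passed in 5 of 16 alternatives, with adjusted p from 0.0044 (the 7 mice alone) to 0.470 (against untreated mice, where the estimate was -0.38), and in none of the 7 fits that left out a mouse (0.067 to 0.648, the last without ruxolitinib mouse 1).

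Tnfrsf13c, the gene for the BAFF receptor that mature B cells need to survive, had 8.61, 10.3 and 9.32 normalised counts in treated mice and 22.9, 34.8, 22.7 and 11.2 in vehicle mice. The groups did not overlap, but venetoclax vehicle mouse 2, with 4 raw counts, lay just above the treated mice. The log2 fold change was -1.28 (SE 0.37; edgeR, adjusted p = 0.138). Tnfrsf13b, which encodes TACI, a second receptor for BAFF, had 11.9, 12.9 and 6.21 in treated mice and 16.2, 24.6, 19.5 and 36.5 in vehicle mice, a log2 fold change of -0.80 (SE 0.26, adjusted p = 0.237). Cd22, an inhibitory receptor of B cells, also had no overlap, with a log2 fold change of -0.61 (SE 0.35). The 2 members with an estimate above 0 were Cr2 (0.61, SE 0.62), the complement receptor of mature B cells, and Cxcr5 (0.03, SE 0.31), the homing receptor for B cell follicles, and both overlapped between groups.

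**Figure D3:**
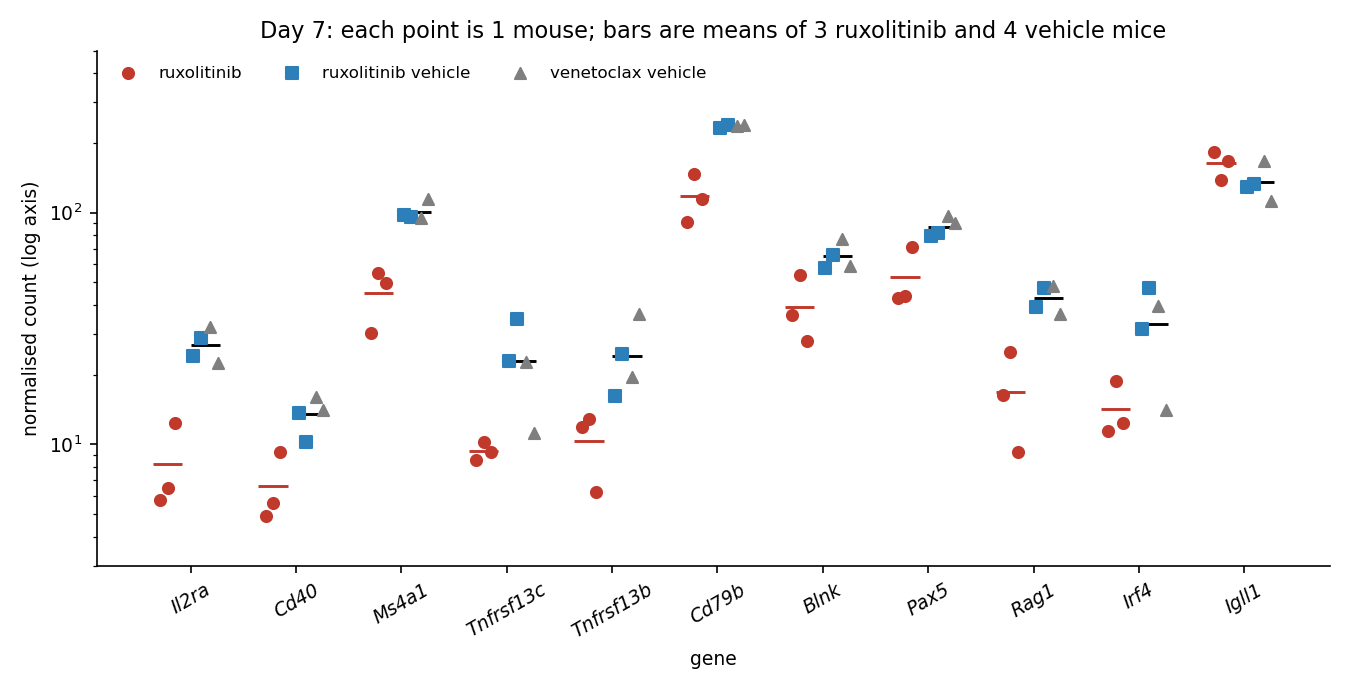
Normalised counts (log axis) of 11 genes in the 7 mice of day 7; each point is 1 mouse, red circles are ruxolitinib, blue squares the ruxolitinib vehicle and grey triangles the venetoclax vehicle, and bars are the means of the 3 treated and the 4 vehicle mice. The treated mice lie below all vehicle mice for every gene shown except Irf4, where venetoclax vehicle mouse 2 (14) falls among them, and Igll1, where the groups overlap.

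Among the 11 measured genes of B cell precursors, none passed the adjusted test, 10 had an estimate below 0, 5 were lower at an unadjusted p under 0.05 and in 5 the treated mice lay below all vehicle mice. Over all genes tested these shares were 60.3%, 4.43% and 4.73%. The median was -0.67, the lowest of the 23 lists, and lay between -0.74 and -0.58 with a mouse left out. Summed over the list, the 3 treated mice had 624 to 639 normalised counts and the 4 vehicle mice 831 to 948, so these sums did not overlap. Of these sums Cd79b alone made up 91.0 to 147 in treated and 231 to 240 in vehicle mice. Sums of other lists did not overlap either: plasma cell genes (218 to 301 against 303 to 358) and the IL-2 family (206 to 273 against 275 to 286) were lower. Those of monocyte and macrophage genes were higher. The list shares no member with that of mature B cells, but the same cells can carry genes of both.

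Cd79b, which encodes a signalling chain of the B cell receptor, had 91.0, 147 and 114.9 normalised counts in treated mice and 231, 240, 237 and 239 in vehicle mice. The vehicle mice were nearly equal, and every treated mouse lay clearly below them. The log2 fold change was -1.0 (SE 0.32; edgeR, adjusted p = 0.216), 2.00-fold lower. Of 16 alternatives it passed in 1, the fit of the 7 mice alone (adjusted p = 0.0037), and it passed in none of the 7 fits that left out a mouse (0.231 to 0.996). Against untreated mice the Cd79b estimate was 0.14 (adjusted p = 0.836). Rag1, a subunit of the recombinase that cuts immunoglobulin genes, had 16.4, 25 and 9.32 in treated mice and 39.1, 47.1, 48.4 and 36.5 in vehicle mice, with a log2 fold change of -1.14 (SE 0.32, adjusted p = 0.116). Pax5, the transcription factor that holds cells in the B lineage, had 43.1, 43.8 and 71.4 against 79.7, 82.0, 96.9 and 89.9, a log2 fold change of -0.85 (SE 0.31, adjusted p = 0.467). Neither gene overlapped between groups.

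Blnk, an adaptor downstream of the precursor B cell receptor, was also without overlap, at -0.63 (SE 0.32, unadjusted p = 0.0606). The exception was Igll1, which encodes part of the surrogate light chain of the earliest precursors. It had 184, 139 and 168 in treated mice and 129, 133, 167 and 112 in vehicle mice, with a log2 fold change of 0.24 (SE 0.23) and overlapping groups. The Igll1 value lay between 0.13 and 0.37 with a mouse left out. Against untreated mice, a comparison that crosses runs, it was 0.95 and passed (edgeR, adjusted p = 0.0287).

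All 7 plasma cell genes tested had an estimate below 0, with a median of -0.45 (-0.29 without venetoclax vehicle mouse 1), none passed the adjusted test and 2 were lower at an unadjusted p under 0.05, beside 60.3% and 4.43% of all genes. Irf4, a transcription factor of activated B cells and plasma cells, had 11.5, 18.8 and 12.4 normalised counts in treated mice against 31.4, 47.1, 39.5 and 14 in vehicle mice. Venetoclax vehicle mouse 2, with 5 raw counts, lay among the treated mice and the other vehicle mice lay above them. The log2 fold change was -1.19 (SE 0.30; edgeR, adjusted p = 0.0527), just outside the threshold. It passed in 2 of 16 alternatives (adjusted p from 0.034 to 0.992) and in 1 of the 7 fits that left out a mouse, that without venetoclax vehicle mouse 2 (-1.31, 0.0238), where the others gave up to 0.648 (without ruxolitinib mouse 1). Cd38, an ectoenzyme of plasma cells and other leukocytes, had a log2 fold change of -0.76 (SE 0.34, unadjusted p = 0.030), which was -0.48 without ruxolitinib mouse 1 and passed the adjusted test in no alternative. Tnfrsf17, the plasma cell receptor BCMA, was above background in 2 of the 7 lanes.

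**Figure D4:**
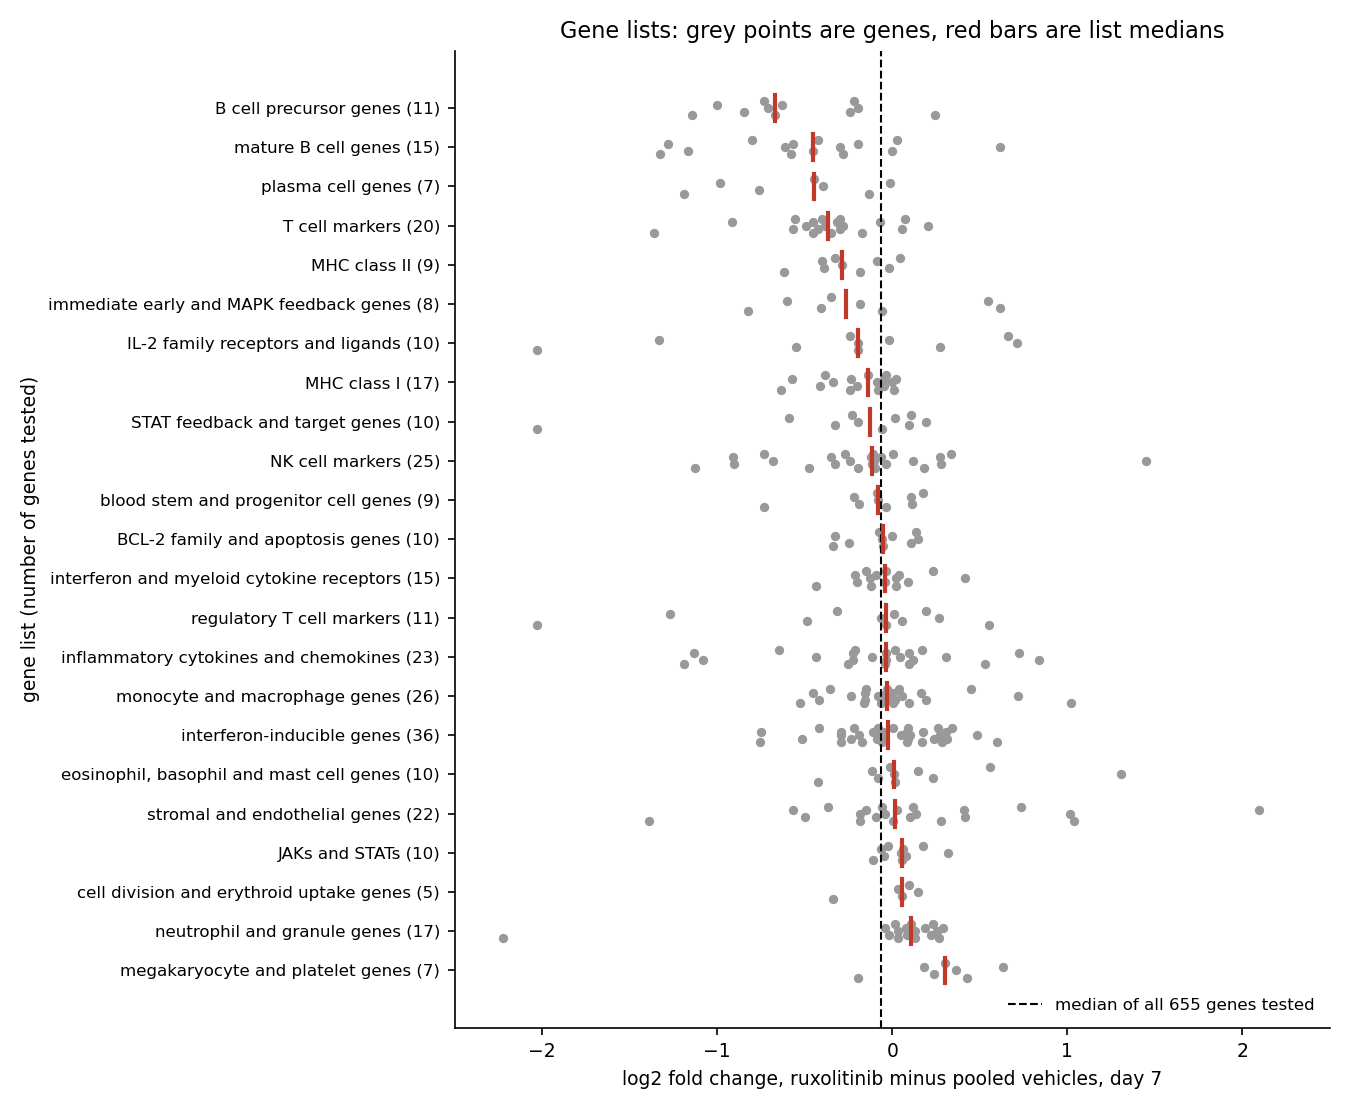
Log2 fold changes, ruxolitinib minus pooled vehicles on day 7, of the genes tested in each of 23 lists; grey points are genes (spread vertically for visibility), red bars list medians, and the dashed line the median of all 655 genes, -0.06. The 3 lowest medians belong to B cell precursors (-0.67), mature B cells (-0.45) and plasma cells (-0.45), and the highest to megakaryocytes and platelets (0.30). The megakaryocyte and platelet median ran from 0.17 to 0.41 with a mouse left out, and was as low as 0.14 in another alternative.

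The IL-2 family signals through JAK1 and JAK3. Besides Il2ra, 2 of its 10 receptor and ligand genes tested had an unadjusted p under 0.05, 1 lower and 1 higher, where 4.43% and 0.916% of all genes did. Il15ra, the receptor chain that presents IL-15, had 2.87, 1.47 and 3.11 normalised counts in treated mice and 4.58, 14.3, 4.69 and 2.81 in vehicle mice, near background in most lanes, with a log2 fold change of -1.33 (SE 0.53, adjusted p = 0.540). Il15, a survival factor of NK and memory CD8 T cells, had 7.38, 8.81 and 12.4 against 4.58, 4.10, 6.64 and 2.81, a log2 fold change of 0.71 (SE 0.34, adjusted p = 0.851). The groups did not overlap for Il15, but it was above background in only 4 of the 7 lanes. The beta chain Il2rb (-0.20, SE 0.26), the common gamma chain Il2rg (-0.02, SE 0.26) and Il7r (-0.24, SE 0.26), the IL-7 receptor chain that B and T cell precursors need, all overlapped between groups.

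None of the 10 JAK and STAT genes tested, the drug's targets Jak1 and Jak2 included, had a p under 0.05 even before adjustment, and their log2 fold changes ran from -0.11 to 0.32. Jak1 had 160, 178 and 221 normalised counts in treated mice and 174, 135, 195 and 191 in vehicle mice (log2 fold change 0.06, SE 0.24). Jak2 had 94.3, 108 and 103 against 101, 98.4, 128 and 107 (-0.11, SE 0.26). Of the other kinases, Jak3 was at 0.08 (SE 0.23) and Tyk2 at 0.32 (SE 0.28). Stat2 (0.18, SE 0.26), Stat3 (-0.06, SE 0.26), Stat4 (0.05, SE 0.35), Stat5b (-0.02, SE 0.23) and Stat6 (0.06, SE 0.18) had estimates smaller than their errors. These signs turned with the scaling of the lanes for Stat3 and Stat5b (TMM) and for Jak1 and Stat6 (total count). Against untreated mice, a comparison that crosses runs, Jak3 (-1.06, adjusted p = 0.0073) and Tyk2 (-1.14, 0.0139) were lower and Stat3 (0.94, 0.0443) was higher. Of 10 genes that STAT proteins are known to switch on, Il2ra was the 1 with an unadjusted p under 0.05, where 5.34% of all genes were, and the list median was -0.13, which was -0.01 by DESeq2. Socs1, a feedback inhibitor of JAKs, had 3.69, 5.29 and 18.6 normalised counts in treated mice and 6.10, 10.2, 10.9 and 8.43 in vehicle mice (-0.59, SE 0.44). The survival gene Bcl2l1 was at -0.33 (SE 0.22), Irf1, an interferon response factor, at -0.23 (SE 0.18), and Myc at -0.06 (SE 0.20), each with overlapping groups.

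Of 36 interferon-inducible genes, many of which encode antiviral proteins, 18 had an estimate below 0 and 18 above, and the median was -0.02. Gbp5, a guanylate-binding GTPase, was the 1 of them with an unadjusted p under 0.05 (5.34% of all genes), at -0.76 (SE 0.31, adjusted p = 0.540). Ifit3, an inhibitor of viral RNA translation, had 29.1, 22.9 and 31.1 normalised counts in treated mice and 19.5, 10.2, 27.7 and 22.5 in vehicle mice. Rsad2, which encodes viperin, had 65.2, 81.6 and 55.9 against 41.5, 63.5, 68.8 and 53.4. Both genes overlapped between groups, with log2 fold changes of 0.30 (SE 0.34) and 0.31 (SE 0.25). Leaving out a mouse moved Ifit3 to between 0.19 and 0.56 and Rsad2 to between 0.14 and 0.48. In another alternative with vehicle controls Ifit3 was as low as 0.007. Isg15, a ubiquitin-like modifier, was at 0.27 (SE 0.27) and Oas2, a sensor of double-stranded RNA, at 0.09 (SE 0.26), and Ifnb1 and Ifng were at or below background in all 7 lanes.

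Among 9 MHC class II genes, which present antigen to CD4 T cells, 8 had an estimate below 0 (60.3% of all genes) with a median of -0.29, and none passed the adjusted test. Without venetoclax vehicle mouse 2 the median was -0.16, and under TMM scaling it was also -0.16. H2-Ob, a chain of the inhibitor of peptide loading in B cells, was the only one of the 9 lower at an unadjusted p under 0.05, where 4.43% of all genes were: treated mice had 38.1, 34.9 and 24.9 normalised counts and vehicle mice 48.5, 53.3, 42.6 and 84.3. These groups did not overlap, as in 4.73% of all genes, at a log2 fold change of -0.62 (SE 0.28, adjusted p = 0.715). The H2-Ob value ran from -0.90 to -0.32 over the alternatives that kept vehicle controls, and passed in none of them. Against untreated mice, a comparison that crosses runs, it was -1.71 and passed (edgeR, adjusted p = 0.00092). Cd74, the invariant chain, had 540, 744 and 572 against 982, 594, 776 and 924 (-0.40, SE 0.28), and H2-Aa had 541, 625 and 432 against 833, 572, 599 and 815 (-0.39, SE 0.30). Both overlapped between groups. H2-Ab1 was at -0.32 (SE 0.20), H2-Eb1 at -0.18 (SE 0.25) and H2-DMb2, part of the peptide loading factor, at -0.08 (SE 0.24), a sign that turned under TMM scaling and DESeq2. Leaving out a mouse moved H2-Eb1 to between -0.35 and -0.01. Of the 17 genes of MHC class I presentation, 15 had an estimate below 0 (60.3% of all genes), with a median of -0.14 that shrank to -0.02 without ruxolitinib mouse 2 and under TMM scaling. Tap1, the peptide transporter, was at -0.24 (SE 0.18). Nlrc5, the transactivator of class I genes, had 14.8, 17.0 and 18.6 in treated mice and 23.8, 26.6, 24.2 and 22.5 in vehicle mice (-0.57, SE 0.25, adjusted p = 0.677).

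No marker of another cell type that marrow can hold passed the adjusted test, other than Il2ra itself. Of 20 T cell markers 17 had an estimate below 0 (60.3% of all genes), with a median of -0.37 that was -0.13 without ruxolitinib mouse 2, and none passed; their summed levels overlapped, 157 to 280 normalised counts in treated and 210 to 301 in vehicle mice. Cd2, an adhesion receptor of T and NK cells, had the smallest p among them (-1.36, SE 0.43, adjusted p = 0.216), with 6.15, 4.11 and 12.4 against 11.9, 8.20, 18 and 19.7. The 11 markers of regulatory T cells, on which CD25 is also found, included Il2ra as the 1 that passed, beside 0.305% of all genes. Their median of -0.04 had no stable sign or size, from -0.36 to 0.12 with a mouse left out and -0.92 with the mean count filter. The 25 NK cell genes had a median of -0.11, which was 0.03 without ruxolitinib mouse 2 and 0.03 by DESeq2. Klrb1, an NK cell lectin receptor, was above background in 1 of the 7 lanes, as was the interferon gene Ifna1. Of 17 neutrophil and granule genes 14 had an estimate above 0, as did 260 of all 655. Their median of 0.11 turned to -0.06 without ruxolitinib mouse 3 and to -0.16 without the 8 lanes of the study under 60000 counts. With total count scaling it was -0.01 and with the replicate block -0.04. Their summed level, in which S100a8 made up 38679 to 58097 in treated mice, was 63454 to 91236 in treated and 60827 to 72917 in vehicle mice. The 1 of the 17 with an unadjusted p under 0.05, as in 5.34% of all genes, was Cxcr1, a chemokine receptor of neutrophils. It was at -2.23 (SE 0.70, adjusted p = 0.216) and above background in 2 of the 7 lanes. The 26 monocyte and macrophage genes had a median of -0.03, which changed sign with a mouse left out (-0.14 to 0.12), with none passing, although their summed level was 10909 to 12412 in treated and 9172 to 10658 in vehicle mice, without overlap. Flt3, a receptor of early progenitors that also marks those fated to become lymphocytes, had 8.61, 12.9 and 9.32 in treated and 14.7, 28.7, 18.8 and 14 in vehicle mice, without overlap (-0.73, SE 0.30, adjusted p = 0.540).

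Of the 6 genes that were higher in treated mice at an unadjusted p under 0.05, 2 were on the stromal list of 22 genes, where 0.916% of all genes were, and none passed adjustment. Col1a1, a chain of type I collagen, had 9.84, 58.4 and 27.9 normalised counts in treated and 10.7, 10.2, 5.08 and 2.81 in vehicle mice, a log2 fold change of 2.10 (SE 0.64, adjusted p = 0.216). The value rested on ruxolitinib mouse 2, without which it was 0.75. Cxcl12, the chemokine that keeps blood progenitors in the niche, had 73.8, 101 and 363 against 110, 98.4, 46.9 and 53.4, at 1.02 (SE 0.37), and was 0.16 without ruxolitinib mouse 3. The list of 22 stromal and endothelial genes had a median of 0.02 (-0.09 to 0.13 with a mouse left out), and its summed level ran from 636 to 1159 in treated and from 658 to 773 in vehicle mice. The share of stromal RNA in each sample was not measured and its part in the differences of other genes was not tested. Cd36, a scavenger receptor for lipids, had 44.3, 62.3 and 55.9 against 29.3, 22.5, 45.3 and 22.5 (0.72, SE 0.32), and Mavs, the mitochondrial adaptor of RNA sensors, had 30.7, 27.6 and 34.2 against 22.9, 16.4, 20.3 and 25.3 (0.48, SE 0.23, adjusted p = 0.857).

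The day 7 changes were then tested against the changes of day 1 and day 3, each taken against the pooled vehicles of its own day. The days share no mouse, but each day was read in a run of its own, so day and run cannot be told apart. Lanes of day 3 carry a run header that reads Day 2, and their day was taken from the sample labels, so every day 3 value rests on those labels. Between day 1 and day 7 the change differed for 22 of 655 genes (3.36%), 13 (1.98%) with a higher and 9 (1.37%) with a lower value on day 7. At an unadjusted p under 0.05 it was higher for 29 (4.43%) and lower for 57 (8.70%). Without ruxolitinib day 7 mouse 1, the number was 11. The split was 18 higher and 6 lower under TMM scaling, and 15 higher and 4 lower by DESeq2, which changes both the test and the scaling. By limma 3 genes passed, all of them higher, so that no gene was called lower on day 7 than on day 1 by that method. Of the 13 that were higher, 11 were on the list of interferon-inducible genes. On day 1, 14 of the 36 such genes were below vehicle at an adjusted p under 0.05, where 18 of 655 genes (2.75%) were, and the list median was -0.83. Before adjustment, 54 genes (8.24%) were above and 47 (7.18%) below vehicle on day 1. For Ifit3 the log2 fold change was -2.87 (SE 0.36) on day 1 and -0.35 (SE 0.34) on day 3, beside the day 7 value of 0.30, and the difference between days 7 and 1 was 3.17 (SE 0.50; edgeR, adjusted p = 0.00014). For Oas2 this difference was 2.32 (SE 0.38), for Isg15 2.53 (SE 0.47) and for Rsad2 2.16 (SE 0.36). Ifit3, Oas2 and Rsad2 passed in all 14 alternatives, and Isg15 in 11 of 13.

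The 9 genes with a lower value on day 7 than on day 1 included Il2ra, Cd40 and 3 more genes of B cells. Il2ra had been at 0.05 (SE 0.26) on day 1 and at -0.13 (SE 0.30) on day 3, and its day 7 change differed from the former by -2.08 (SE 0.41; edgeR, adjusted p = 0.0016) and from the latter by -1.91 (SE 0.43, adjusted p = 0.0305). Ms4a1 went from 0.76 (SE 0.27) on day 1 to -0.11 (SE 0.32) on day 3 and -1.17 on day 7, a difference of -1.93 (SE 0.40, adjusted p = 0.0023) between days 7 and 1. Tnfrsf13c had been above vehicle on day 1, at 1.08 (SE 0.33, adjusted p = 0.0474), and differed by -2.36 (SE 0.49). For Cd79b the difference was -1.69 (SE 0.44), and for Cd40 it was -1.50 (SE 0.40). These differences passed in 12 of 14 alternatives for Il2ra, 11 of 14 for Ms4a1, 9 of 14 for Cd79b and 4 of 13 for Cd40. Cd74 (-1.39, SE 0.39) and H2-DMb2 (-1.29, SE 0.34) were also among the 9. On day 1 they were above vehicle by 0.99 (SE 0.28) and 1.21 (SE 0.23), and on day 7 they were at -0.40 (SE 0.28) and -0.08 (SE 0.24). The difference passed in 6 of 14 alternatives and 2 of the 7 fits without a mouse for Cd74, and in 8 of 14 and 6 of 7 for H2-DMb2.

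B cell precursor genes had list medians of 0.06 (day 1), -1.27 (day 3) and -0.67 (day 7), and mature B cell genes had 0.28, -0.10 and -0.45. On day 3, 5 of the 11 precursor genes were below vehicle at an adjusted p under 0.05, where 7 of 655 genes (1.07%) were and 44 (6.72%) had an unadjusted p under 0.05 in that direction. Rag1 and Pax5 had log2 fold changes of -1.59 (SE 0.35) and -1.59 (SE 0.32) on day 3. Their day 7 changes were smaller in size by 0.45 (SE 0.47) and 0.75 (SE 0.44), differences that did not pass the test. Igll1 had been at -0.94 (SE 0.25) on day 1 and -1.80 (SE 0.29) on day 3, and its day 7 change was higher than that of day 3 by 2.05 (SE 0.37; edgeR, adjusted p = 0.0017). Igll1 (higher, 0.153% of genes) and Il2ra (lower, 0.153%) were the 2 genes (0.305%) that differed between days 3 and 7. At an unadjusted p under 0.05, 7 genes (1.07%) were higher and 23 (3.51%) lower on day 7. Il2ra no longer passed this test without ruxolitinib mouse 1, ruxolitinib mouse 2 or venetoclax vehicle mouse 1 of day 7, which left 1 gene in each case, and it passed in 5 of 14 other alternatives.

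**Figure D5:**
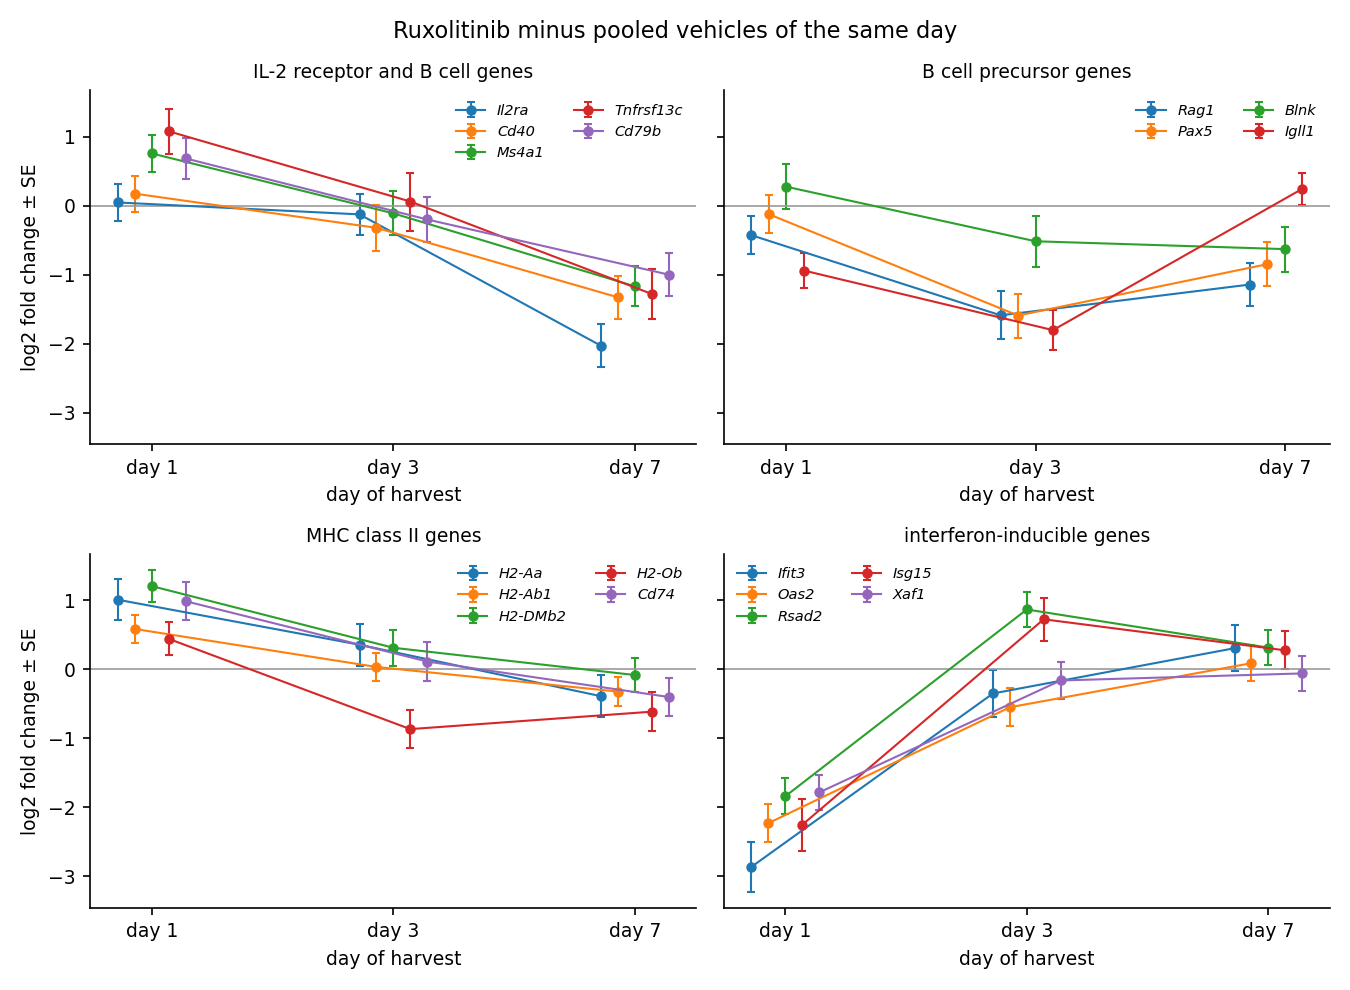
Log2 fold change ± SE of ruxolitinib minus the pooled vehicles of the same day, on days 1, 3 and 7, for 4 genes of B cell precursors and 5 of each of the other groups; lines join values of different mice. Il2ra stays near 0 until day 3 and reaches -2.03 on day 7, Rag1, Pax5 and Igll1 are lowest on day 3, and the MHC class II genes shown lie above 0 on day 1 and between -0.62 and -0.08 on day 7, where H2-DMb2 changes sign under TMM scaling and DESeq2. The interferon-inducible genes shown lie between -2.87 and -1.79 on day 1 and near 0 on day 7.

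The 2 vehicle groups of day 7 were also set against each other, since they were pooled. None of 655 genes differed at an adjusted p under 0.05 by edgeR, DESeq2 or limma, and 20 genes (3.05%) had an unadjusted p under 0.05 by edgeR, 4 (0.611%) higher and 16 (2.44%) lower in the ruxolitinib vehicle. With 2 mice a side this test has little power. The difference between the ruxolitinib and the venetoclax vehicle was -0.22 (SE 0.35) for Il2ra, -0.27 (SE 0.38) for Cd40, -0.08 (SE 0.37) for Ms4a1 and -0.02 (SE 0.42) for Cd79b. Against the ruxolitinib vehicle alone, the day 7 change in Il2ra was -1.92 (adjusted p = 0.0047) and that in Cd40 -1.20 (adjusted p = 0.297). Against the venetoclax vehicle alone they were -2.14 (0.00081) and -1.47 (0.123). Il2ra thus passed against each vehicle, and Cd40 against neither on its own.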

How the data were processed

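The authors exported raw barcode counts from the nCounter and deposited them per probe, without normalisation: 750 endogenous, 20 housekeeping, 8 negative and 6 positive control probes in 1 lane per mouse. No aligner or genome build applies. The label text and the methods name different panels. For each lane, background was set 2 SD above the mean of its negative probes. Counts were divided by a lane factor, the geometric mean over the 11 housekeeping probes that exceeded background throughout the 33 lanes, so a shift of the housekeeping genes would shift every value. Of the endogenous genes, 655 exceeded background in 2 or more lanes and entered the test, and 95 did not. The main test was edgeR 4.0.16 (quasi-likelihood, R 4.3.3) on the counts, in 1 model of 10 group means with the vehicles of a day pooled (23 residual degrees of freedom; coefficient of biological variation 19.8%) and Benjamini-Hochberg adjustment. The standard error (SE) was derived from the edgeR test, as the size of the log2 fold change divided by the square root of the F statistic. Mice are labelled as separate replicates, and p-values measure the spread between them. Two-sided exact permutation of 3 against 4 mice cannot go below 0.0571, the value of each gene without overlap. Promoter windows came from RefSeq (GRCm38.p6).

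The comparison, its gene lists and the rule for named genes were chosen with earlier results of these data known. The 45 named genes passed the adjusted test, or were among the 12 highest or lowest log2 fold changes with an unadjusted p under 0.05, no overlap and a mean of at least 20 normalised counts, or are JAK and STAT genes, genes the study named, or up to 3 of each list with the smallest unadjusted p under 0.05. Igll1, Il21r, Tlr1, Icam4 and other genes named only for a day or list were picked after their values were seen. Some genes that the rule selects are not reported here. Alternatives were DESeq2 1.42.0, limma 3.58.1 on log2(normalised count + 1) with and without background subtraction, TMM and total count scaling, all 20 housekeeping probes, other filters, a replicate block, other controls, and leaving out each mouse or all lanes under 60000 counts; total count scaling without S100a8 was added after seeing the data.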

Additional observations from a re-analysis of the deposited data

Results flagged for a closer look

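Between the day 7 and day 1 changes of ruxolitinib, the test of the difference passed for 22 genes. The log2 difference, day 7 minus day 1, was 3.17 for Ifit3, 2.53 for Isg15, 2.32 for Oas2, 2.16 for Rsad2, 1.99 for Oasl1, 1.73 for Xaf1, 1.46 for Ifih1, 1.36 for Irf7, 1.11 for Ifi27, 0.96 for Isg20 and 0.91 for Cmpk2, all of them interferon-inducible genes. It was 1.21 for Icam4, an adhesion protein of red cell precursors, and 1.18 for Igll1. On the lower side it was -2.36 for Tnfrsf13c, -2.08 for Il2ra, -1.93 for Ms4a1, -1.69 for Cd79b, -1.65 for Il21r, the IL-21 receptor, -1.50 for Cd40, -1.39 for Cd74, -1.31 for Tlr1, a sensor of bacterial lipopeptides, and -1.29 for H2-DMb2. Between the day 7 and day 3 changes it passed for 2 genes, at 2.05 for Igll1 and -1.91 for Il2ra. Day and run cannot be told apart in these differences.

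Within the 4 vehicle mice of day 7, 2 of the named genes had a highest value that stood apart. Venetoclax vehicle mouse 2 was highest for Ms4a1 (115.2 normalised counts), with a gap of 0.85 of the group's range, and ruxolitinib vehicle mouse 2 for Il15ra (14.3), with a gap of 0.84. Both lanes held fewer than 60000 counts, and chance alone sets about 1 gene in 20 apart in this way.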

How the results depend on the processing

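Il2ra was lower at an adjusted p under 0.05 under every alternative. The number of genes changed on day 7 was 2, and 1 under TMM scaling, limma, limma after background subtraction, the mean of the vehicle groups, no filter, the replicate block, the ruxolitinib vehicle only, the venetoclax vehicle only and total count scaling. It was 3 with the mean count filter, and 2 under DESeq2, all 20 housekeeping probes and total count scaling without S100a8, where Ms4a1 passed and Cd40 did not (under the mean count filter Irf4 passed too and Cd40 was not tested). It was 9 (1 higher, 8 lower) in a fit of only the 7 mice and 87 (28 higher, 59 lower) against untreated mice. With each mouse left out it ran from 1 to 3. Cd40 passed with only the 7 mice, against untreated mice and without lanes under 60000 counts, and in no other alternative except some of those that left out 1 mouse. Replicate numbers are shared between groups, and the deviations of same-numbered mice had correlations from -0.17 to 0.077 over 357 genes. In a group of 2 the deviations mirror each other, so these correlations cannot show whether mice were paired. The replicate block, with 1 gene, groups mice by their number alone.

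The difference between days 7 and 1 held for 22 genes, 4 under limma after background subtraction, 3 under limma, 10 with the ruxolitinib vehicle only and under total count scaling, 5 with the venetoclax vehicle only, and 11 to 20 with a mouse left out. The difference between days 7 and 3 held for 2 genes, for 1 under DESeq2, TMM scaling, all 20 housekeeping probes, limma with and without background subtraction, the ruxolitinib vehicle only and total count scaling without S100a8, for 0 under total count scaling (26 at an unadjusted p under 0.05) and with the venetoclax vehicle only (59), and for 1 to 2 with a mouse left out.

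DESeq2 moved the median of all genes from -0.06 to 0.04, and that of B cell precursor genes from -0.67 to -0.57. Genes that did not pass on day 7 against the pooled vehicles changed sign as follows (log2 fold change). Under DESeq2: Stat3 (0.012), Stat5b (0.088), H2-DMb2 (0.015). Under TMM scaling: Stat3 (0.0041), Stat5b (0.091), H2-DMb2 (0.011). With all 20 housekeeping probes: Stat3 (0.0016), Stat5b (0.060). After background subtraction: Jak3 (-0.033). With the replicate block: Stat4 (-0.15). With the ruxolitinib vehicle only: Jak2 (0.023), Stat3 (0.047), Stat5b (0.023). Under total count scaling: Jak1 (-0.016), Stat6 (-0.0097). With the venetoclax vehicle only: Jak1 (-0.081), Jak3 (-0.051), Stat2 (-0.18), Stat4 (-0.14), Stat6 (-0.073), Oas2 (-0.042). Without lanes under 60000 counts: Jak1 (-0.13), Stat6 (-0.18). Against untreated mice: Cd79b (0.14), Jak2 (0.55), Jak3 (-1.06), Tyk2 (-1.14), Stat3 (0.94), H2-DMb2 (0.44), H2-Aa (0.45), Rsad2 (-0.33), Ifit3 (-0.86), Oas2 (-0.70), Isg15 (-0.17), Klrb1 (-2.07), Flt3 (0.86); of these Jak3, Tyk2 and Stat3 passed there. With a mouse left out: Jak1 (-0.048 to 0.17), Jak3 (-0.078 to 0.21), Tyk2 (-0.036 to 0.56), Stat2 (-0.036 to 0.41), Stat3 (-0.20 to 0.091), Stat4 (-0.33 to 0.24), Stat5b (-0.19 to 0.091), Stat6 (-0.032 to 0.22), H2-DMb2 (-0.40 to 0.22), Oas2 (-0.031 to 0.21), Isg15 (-0.064 to 0.49). The cause was not tested. Depth limits genes with few counts: in the 3 lanes under 60000 counts, Il2ra and Cd40 rested on 3 to 14 raw counts.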
